A study of Mus musculus with 18 samples.

Results

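The genes described here are 10 genes that answer to signalling through the kinase ERK: the ETS transcription factors Etv1, Etv4 and Etv5, the AP-1 factor Fosl1, the growth regulators Myc and Ccnd1, the early response genes Phlda1 and Ier3, and the ephrin receptors Epha2 and Epha4. They were chosen by name, with earlier results of these data known. A gene was measured where a probe set of the array carried its symbol and no other. By that rule 9 of the 10 members were measured, among 18193 genes in all, each represented by its probe set with the highest mean. Etv1 was not among them, because each of its 3 probe sets also carries the symbol Gm5454, so no value is given for it.

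The study compared lung tissue of B6C3F1/N mice by Affymetrix array in 3 groups: lung of vehicle controls, lung tumors that arose without exposure (spontaneous tumors), and lung tumors of mice exposed to antimony trioxide (treated tumors). The treated mice breathed an antimony trioxide aerosol in a study with concentrations of 0, 3, 10 and 30 mg/m3, on 5 days of each week and for 6 hours and 12 minutes a day, over at most 105 weeks from an age of 5 to 6 weeks. No group carries an engineered allele according to the labels, and the exposure concentration, sex and animal of a single sample are not given in the labels. Tumors were dissected away from the lung around them and frozen, whereas the control samples are lung, so a tumor is compared with a tissue of many cell types. Nothing in the labels says that samples of 1 group came from separate animals, and p-values then measure only the spread between these samples.

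In the RAS pathway, growth factor receptors activate RAS, RAF, MEK and finally ERK, which enters the nucleus and changes transcription. ERK signalling relieves repression by Capicua, a DNA-binding protein that silences Etv1, Etv4 and Etv5 in resting cells, and it stabilises and induces AP-1 factors and Myc. Cyclin D1, the product of Ccnd1, then activates CDK4 and CDK6 and opens the way into DNA replication. Etv5 is also known for its role in alveolar type 2 cells, the surfactant-making cells from which many mouse lung tumors are thought to arise, in which it helps to maintain cell identity.

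Promoter windows from RefSeq (build GRCm38.p6) were held for 5 of the 10 members, in 7 windows for separate start sites, and they are shown because several members are known targets of the factors listed beside them. The windows printed are the 250 bases before a start site of Etv5 (chr16:22439571-22439820, minus strand), of Epha4 (chr1:77515089-77515338, minus strand), of Epha2 (chr4:141300971-141301220, plus strand) and of Ier3 (chr17:35821463-35821712, plus strand), each written 5′ to 3′ in the direction of transcription. Capitals mark matches on either strand to the motifs searched.
Etv5: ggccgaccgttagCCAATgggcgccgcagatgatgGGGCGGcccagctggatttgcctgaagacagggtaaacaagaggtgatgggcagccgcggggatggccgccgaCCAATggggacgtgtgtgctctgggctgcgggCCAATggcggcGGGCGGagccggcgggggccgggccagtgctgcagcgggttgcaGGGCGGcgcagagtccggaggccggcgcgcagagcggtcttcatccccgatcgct
Epha4: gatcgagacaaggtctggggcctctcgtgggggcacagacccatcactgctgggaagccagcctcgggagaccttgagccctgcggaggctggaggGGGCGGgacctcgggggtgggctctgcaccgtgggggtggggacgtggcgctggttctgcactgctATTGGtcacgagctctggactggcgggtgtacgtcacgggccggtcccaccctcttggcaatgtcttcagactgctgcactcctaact
Epha2: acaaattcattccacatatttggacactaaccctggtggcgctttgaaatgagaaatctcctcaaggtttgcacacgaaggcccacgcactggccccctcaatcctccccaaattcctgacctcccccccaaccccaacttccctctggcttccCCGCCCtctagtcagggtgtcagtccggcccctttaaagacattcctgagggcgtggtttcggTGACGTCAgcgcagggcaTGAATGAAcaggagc
Ier3: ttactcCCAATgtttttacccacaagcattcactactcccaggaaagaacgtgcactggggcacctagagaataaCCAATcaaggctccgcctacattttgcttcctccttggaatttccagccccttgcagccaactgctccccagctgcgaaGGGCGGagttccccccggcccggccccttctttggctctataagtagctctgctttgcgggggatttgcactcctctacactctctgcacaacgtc
The Epha2 window holds a cyclic AMP response element, TGACGTCA, 33 to 26 bases before the start, and the Capicua octamer TGAATGAA, 15 to 8 bases before it. Of all 32851 windows of this length, 1.55% hold the first and 1.08% the second, and each is in 1 of the 7 members' windows. The motifs were chosen after promoters had been read, so these shares do not measure how unusual a match is. The other Capicua octamer searched, TGAATGGA, is in none of the 7 members' windows and in 1.01% of all windows. Only these exact letters were searched, so the absence of a match does not show that Capicua sites are absent. Another Etv5 window (chr16:22438369-22438618, minus strand), not printed, holds TGAATGGG, which differs from TGAATGGA in its last base and was not searched. The window of Etv5 holds CCAAT 3 times and the GC box GGGCGG 3 times, the window of Ier3 holds CCAAT in 2 places and GGGCGG in 1, and the window of Epha4 holds each motif once. CCAAT lies in 33.8% and GGGCGG in 32.7% of all windows. The ETS motif CCGGAAG (6.91% of all windows), the AP-1 motif TGANTCA (6.75%), the E-box CACGTG bound by Myc (6.02%) and the CArG box of serum response factor (1.47%) have no match in the members' windows, which says only that these letters are not there. No 2 matches overlap. G and C make up 71.2% of the Etv5 window, 66.0% of the Epha4 window, 55.6% of the Epha2 window and 54.4% of the Ier3 window, against a median of 52.4% over all windows.

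The series holds 18 arrays, of which 15 were compared: 5 controls (replicates 1, 2, 3, 4 and 6), 4 spontaneous tumors (replicates 1 to 4) and 6 treated tumors (replicates 1 to 6). The other 3 arrays, control replicate 5 and spontaneous tumor replicates 5 and 6, stood apart, with a median correlation with the other arrays of 0.301 to 0.476 against 0.920 to 0.973 for the 15 kept. Each member's difference from control is therefore also given with those 3 put back, for Fosl1 in spontaneous tumors only. Among the 15, the spiked-in bacterial bioB control averaged 10.65 to 11.24 on the log2 scale in control arrays, 10.19 to 10.49 in spontaneous tumor arrays and 10.24 to 10.62 in treated tumor arrays, so the controls did not overlap with the tumors. The Gapdh signal at the 3′ end minus that at the 5′ end was 1.84 to 2.21 in controls, 1.11 to 1.40 in spontaneous tumors and 1.09 to 1.97 in treated tumors. The same difference for actin averaged -0.21 in controls, -0.28 in spontaneous tumors (exact permutation p = 0.0429 after adjustment over 9 such tests) and -0.22 in treated tumors (adjusted exact p = 0.714). By the same tests bioB (adjusted exact p = 0.0357 in spontaneous and 0.0195 in treated tumors) and Gapdh (0.0238 in each) also differed from control. A fit with the actin difference as a covariate is among the alternatives at the end. The part of the bioB and Gapdh differences in the results was not tested.

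Markers of other cell types moved with the same comparisons. Of 8 alveolar type 2 markers measured, 6 rose in spontaneous and 6 in treated tumors, among them Sftpb (log2 fold changes 0.50 and 0.55) and Sftpa1 (0.70 and 0.65). Sftpc was not called in either group (-0.012 and 0.023). Its mean log2 level was already 14.22 in controls, and whether a rise could show at so high a signal was not tested. The median over the 8 markers was 0.68 in spontaneous and 0.65 in treated tumors. The log2 of the type 2 list's summed level ran from 15.83 to 16.35 in controls, 16.55 to 16.73 in spontaneous tumors and 16.47 to 16.62 in treated tumors. All 8 endothelial markers fell in both tumor groups, with a summed level of 14.16 to 15.07 in controls, 11.29 to 12.32 in spontaneous tumors and 11.35 to 12.59 in treated tumors. All 7 markers of ciliated cells and all 6 of smooth muscle fell in both, and so did 5 of 8 fibroblast and 2 of 5 mesothelial markers, while 1 fibroblast marker rose in treated tumors. In spontaneous and treated tumors respectively, 6 and 5 of 8 alveolar type 1 markers fell, 2 and 5 of 5 club cell markers, 2 and 4 of 5 T and NK cell markers, 3 and 4 of 5 B and plasma cell markers, and 0 and 1 of 4 general leukocyte markers. Of 6 macrophage markers 1 rose in each, and 1 fell in treated tumors. Of 9 cell division markers, 9 rose in spontaneous tumors and 4 in treated tumors, with a summed level of 9.29 to 11.63 in controls, 11.55 to 12.94 in spontaneous and 10.05 to 12.46 in treated tumors. In bulk samples, fewer cells of a type and less RNA per cell cannot be told apart, and the part of tissue makeup in the members' differences was not tested.

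Of the 9 members measured, 7 rose in spontaneous tumors against control (Etv4, Etv5, Myc, Ccnd1, Phlda1, Epha2 and Epha4) and 0 fell, where rising means an adjusted p under 0.05 in limma with Benjamini-Hochberg adjustment over all 18193 genes. Of all genes tested in that comparison, 33.0% passed the same threshold, 20.1% higher and 12.9% lower. In treated tumors against control 6 of 9 members rose, the same genes without Ccnd1, and 0 fell, against 38.8% of all genes called, 23.8% higher and 15% lower. The median log2 difference of the 9 members was 1.16 in spontaneous and 1.15 in treated tumors, beside medians of 0.12 and 0.09 over all genes. The values of 8 members did not overlap between control and spontaneous tumors and those of 5 did not overlap between control and treated tumors, whereas 29.3% and 24.5% of all genes did not overlap. The members were chosen with earlier results of these data known, so the shares over all genes are no test of the list. Both comparisons use the same 5 control arrays. With the 3 poor arrays put back, 0 of 9 members were called in spontaneous tumors, where 2 of the 3 lie, and 3 of 9 (Etv4, Myc and Epha4) in treated tumors, against 4.16% and 7.42% of all genes in that setting.

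**Figure D1:**
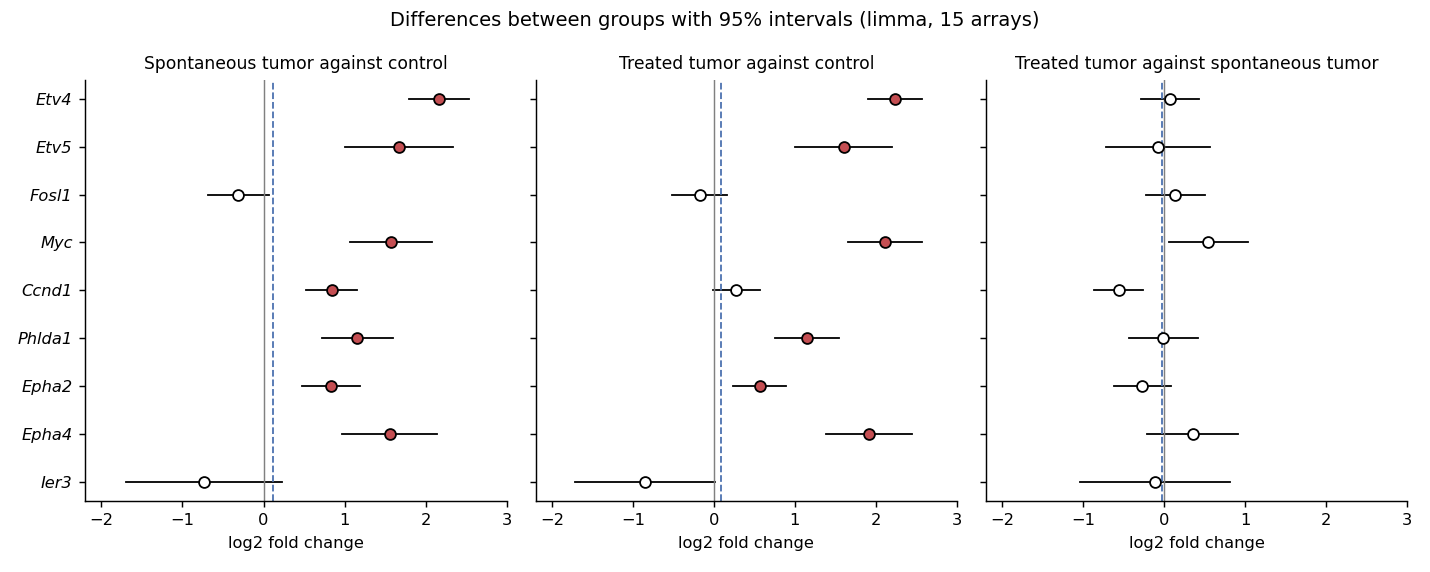
Log2 fold change (horizontal axis) of each of the 9 measured members in spontaneous tumors against control, treated tumors against control and treated against spontaneous tumors, with 95% confidence intervals; filled red points passed the adjusted p of 0.05 and the dashed blue line is the median of all genes. Etv4 lies farthest to the right in both comparisons with control, at 2.16 and 2.23, while Fosl1 and Ier3 lie left of 0 in both.

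Etv4, an ETS factor of the PEA3 family that drives growth and branching in embryonic lung, had the largest difference of the members. Its log2 levels in control lung were 6.27, 5.81, 5.82, 5.43 and 6.10, and in the 4 spontaneous tumors 8.16, 7.80, 7.87 and 8.35. The 6 treated tumors ran from 7.78 to 8.37 with a median of 8.18. Every tumor lay above every control, the lowest tumor at 7.78 and the highest control at 6.27. The difference was 2.16 ± 0.17 (SE, 4 against 5 arrays) in spontaneous tumors, with a limma adjusted p of 5.36e-07 and an unadjusted exact permutation p of 0.00794. In treated tumors it was 2.23 ± 0.16 (6 against 5 arrays), with an adjusted p of 8.28e-08 and an unadjusted exact p of 0.00216, the smallest that these group sizes allow. With all 18 arrays the differences were 1.36 (adjusted p = 0.0531) and 1.97 (adjusted p = 0.00284).

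Etv5, the paralog of Etv4 that is expressed in adult alveolar type 2 cells, had log2 levels of 9.19, 10.60, 9.59, 9.28 and 10.33 in control lung. The spontaneous tumors read 11.90, 11.34, 11.53 and 11.13, and the treated tumors 10.83 to 12.29 with a median of 11.37. No tumor fell among the controls, although the controls spread more widely (SD 0.63) than those of Etv4 (SD 0.32). The rise was 1.68 ± 0.31 in spontaneous tumors (adjusted p = 0.000864) and 1.60 ± 0.28 in treated tumors (adjusted p = 0.000401), about 3.2-fold and 3.0-fold, beside the rise of 6 of 8 alveolar type 2 markers in each tumor group. Over all 18 arrays these were 0.56 (adjusted p = 0.848) and 2.08 (adjusted p = 0.189).

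**Figure D2:**
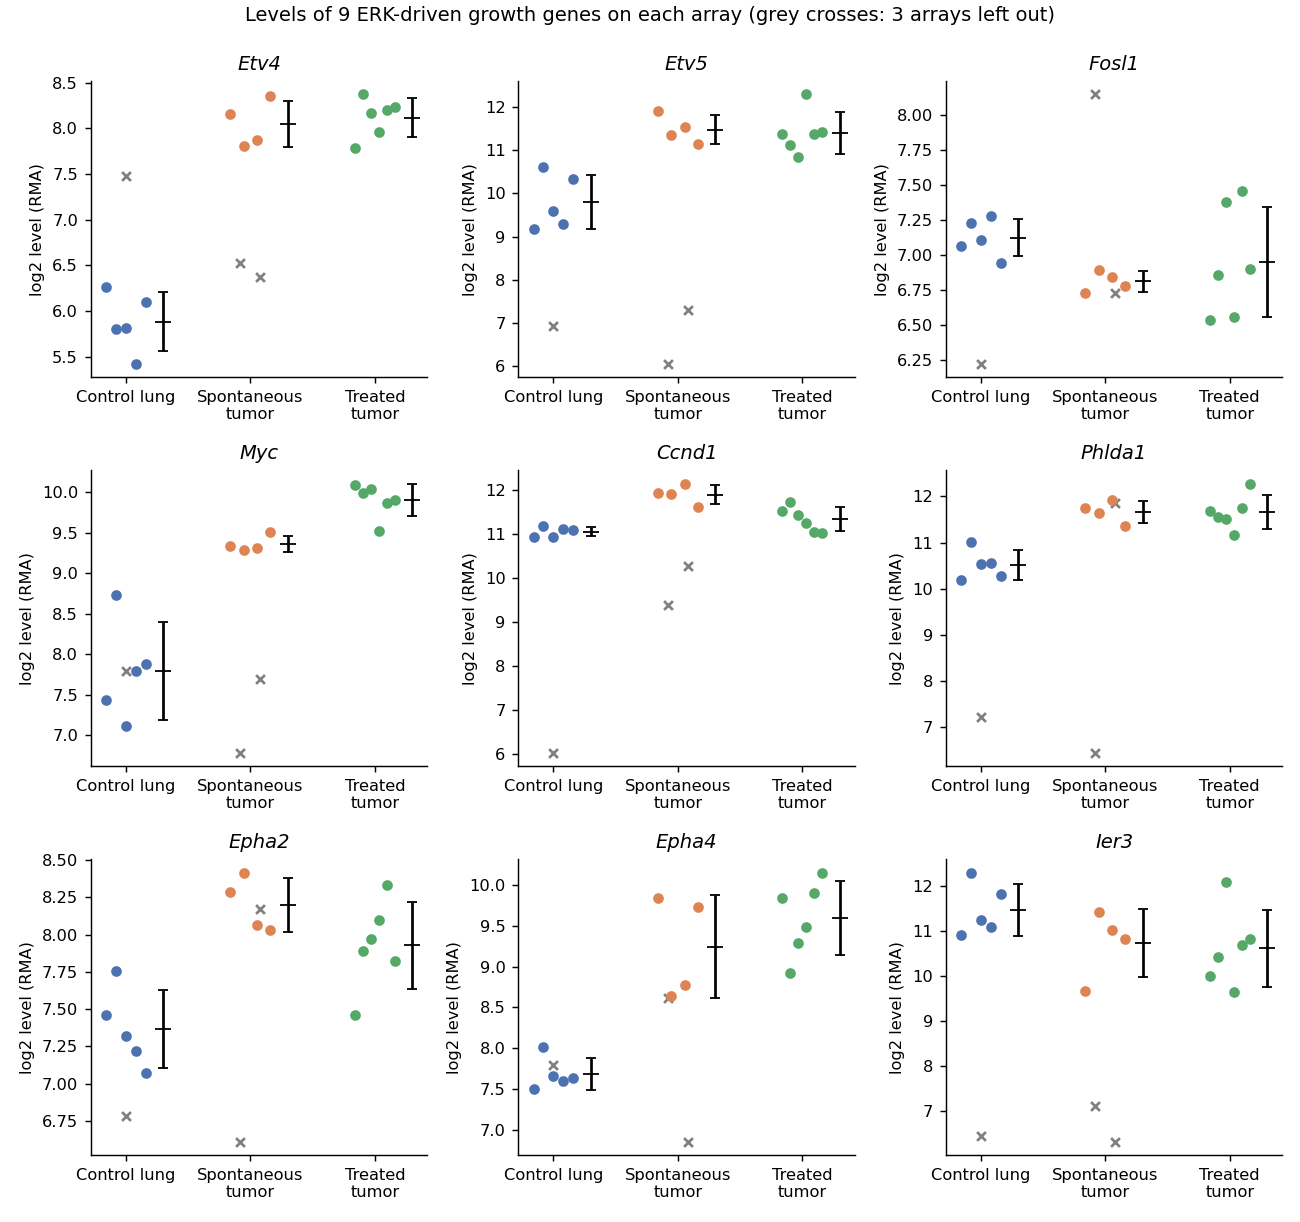
Log2 level (vertical axis, deposited values) of each of the 9 members in control lung, spontaneous tumors and treated tumors: each dot is 1 array, black marks are the mean and SD of the arrays kept, and grey crosses are the 3 arrays left out. Etv4, Etv5, Myc, Phlda1 and Epha4 separate both tumor groups from control, whereas Ier3 overlaps between all 3 groups.

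The rest of the ETS family moved in both directions. Of 22 other ETS factors measured, 6 rose and 8 fell in spontaneous tumors (median 0.10), and 6 rose and 5 fell in treated tumors (median 0.14). Elf5, an epithelial ETS factor, rose by 2.57 ± 0.31 in spontaneous and 2.61 ± 0.28 in treated tumors. Ehf, another epithelial member, rose by 1.31 ± 0.21 and 1.29 ± 0.19. The endothelial factors Erg (-2.42 ± 0.32 and -2.52 ± 0.29) and Fli1 (-1.12 and -1.03) fell in both, as did Ets1 (-1.68 ± 0.27 and -1.90 ± 0.24), beside the fall of all 8 endothelial markers.

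Among the genes that restrain ETV proteins, Cic, which encodes the repressor Capicua, differed by 0.22 ± 0.12 (adjusted p = 0.167) and 0.15 ± 0.11 (adjusted p = 0.278) and was not called. Of the 7 genes of this list, 4 rose and 0 fell in each tumor group (medians 0.37 and 0.30). The 4 encode parts of the ubiquitin ligase that marks ETV1, ETV4 and ETV5 for destruction: Det1 (0.73 and 0.61), Ddb1 (0.51 and 0.48), Cul4a (0.51 and 0.57) and Cop1 (0.37 and 0.30).

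Fosl1 encodes FRA1, an AP-1 factor that accumulates under sustained ERK activity, and it was not called in either tumor group. Its control levels were 7.07, 7.23, 7.11, 7.28 and 6.94, and its spontaneous tumor levels 6.73, 6.90, 6.84 and 6.78. The treated tumors ran from 6.54 to 7.46 around a median of 6.88. How far the Fosl1 levels stand above background is not known. All 4 spontaneous tumors lay below all 5 controls, while the treated tumors lay on both sides of them. The difference was -0.31 ± 0.18 in spontaneous tumors (limma adjusted p = 0.192, exact permutation p = 0.0159 before adjustment) and -0.18 ± 0.16 in treated tumors (adjusted p = 0.420). After adjustment over all genes the exact test did not call Fosl1 in spontaneous tumors. Fitted on the control and spontaneous arrays alone, the difference in spontaneous tumors passed at a limma adjusted p of 0.0433. With all 18 arrays it turned to 0.046 (adjusted p = 0.966).

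Among 10 other AP-1 genes, 1 rose and 1 fell in spontaneous tumors (median -0.25), and 2 rose and 2 fell in treated tumors (median -0.11). Jun, the main partner of FOS proteins, fell by 1.43 ± 0.22 on the log2 scale in spontaneous and by 1.50 ± 0.20 in treated tumors. Junb, which often opposes it, rose by 1.02 ± 0.18 and 0.95 ± 0.17. In treated tumors the small MAF factor Maff rose by 0.76 ± 0.26 (adjusted p = 0.0329) and Jund fell by 0.30 ± 0.11 (adjusted p = 0.0459).

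Myc, the transcription factor that drives ribosome production and metabolism in growing cells, rose in both tumor groups. The control lungs read 7.43, 8.74, 7.12, 7.79 and 7.88, and the spontaneous tumors 9.34, 9.28, 9.31 and 9.51. The treated tumors ran from 9.53 to 10.09 with a median of 9.95. The 3 groups were fully separate, with control replicate 2 nearest to the tumors and spontaneous replicate 4, at 9.51, next to the lowest treated tumor. The rise was 1.57 ± 0.24 in spontaneous tumors (adjusted p = 0.000157), about 3.0-fold, and 2.12 ± 0.21 in treated tumors (adjusted p = 2.67e-06), about 4.3-fold. Over all 18 arrays it was 0.86 (adjusted p = 0.392) and 2.12 (adjusted p = 0.00336).

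Of 20 classical Myc targets, 10 rose and 0 fell in spontaneous tumors, and 14 rose and 0 fell in treated tumors (medians 0.43 and 0.48). Ldha, the lactate dehydrogenase of glycolysis, rose by 1.26 and 0.95, and Tfrc, the transferrin receptor, by 1.21 and 0.85. Fbl, a nucleolar methyltransferase of ribosomal RNA, rose by 0.81 and 0.62, and Shmt1, of folate metabolism, by 1.32 and 1.46. Nop58, another nucleolar protein, rose by 0.59 and 0.93. Of the 13 genes of the Myc network, the partners and antagonists of Myc, 3 rose and 1 fell in spontaneous and 4 rose and 1 fell in treated tumors (medians 0.0015 and 0.022). Mlx (0.90 and 0.67) and the antagonists Mxd1 (0.94 and 0.68) and Mxd3 (0.37 and 0.29) rose in both, Mycl fell by 1.80 ± 0.50 and 1.40 ± 0.45, and Mycn rose in treated tumors by 1.12 ± 0.35.

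Ccnd1 rose in spontaneous tumors and did not pass the test in treated ones. Its control levels were tight, at 10.94, 11.19, 10.94, 11.12 and 11.09, and the spontaneous tumors read 11.92, 11.91, 12.14 and 11.61. The treated tumors ran from 11.03 to 11.72 with a median of 11.34. All spontaneous tumors lay above all controls, whereas some treated tumors lay among the controls. The rise was 0.84 ± 0.15 in spontaneous tumors (adjusted p = 0.000578), about 1.8-fold, and the difference in treated tumors was 0.28 ± 0.13 (95% interval -0.0093 to 0.57, adjusted p = 0.119). After centring each array on its median, the difference in treated tumors was 0.36 and passed at an adjusted p of 0.0475. Of 9 cell division markers, 9 rose in spontaneous and 4 in treated tumors against control, and 0 of 9 were called between the tumor groups (median -0.71, lowest adjusted p = 0.550). Their part in the result was not tested. Over all 18 arrays the differences were 0.99 (adjusted p = 0.643) and 1.12 (adjusted p = 0.456).

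Of 20 other cell cycle genes around cyclin D, 4 rose and 3 fell in spontaneous tumors (median 0.060), and 4 rose and 7 fell in treated tumors (median -0.054). The kinase genes Cdk4 (0.87 and 0.86) and Cdk2 (1.13 and 1.01) rose in both, and Cdk6, the other partner of cyclin D, fell by 1.39 and 1.23. E2f3, a factor freed when the retinoblastoma protein is phosphorylated, rose by 1.72 ± 0.20 and 2.07 ± 0.18. Its relative E2f2 was not called in spontaneous tumors (-0.36 ± 0.20) and was lower in treated tumors (-1.055 ± 0.18, limma adjusted p = 0.00026). Ccnd2, encoding a second D cyclin, fell by 1.23 and 1.35, and Rb1 itself fell by 0.56 and 0.89.

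Epha4, a receptor tyrosine kinase for ephrins that guides cell contact and repulsion, rose more than Epha2. Its control levels were 7.50, 8.02, 7.66, 7.60 and 7.64, its spontaneous tumor levels 9.83, 8.63, 8.78 and 9.73, and its treated tumor levels 8.92 to 10.15 with a median of 9.66. All tumors lay above all controls, and spontaneous tumors 2 and 3 lay about 1 unit below the other two. The rise was 1.56 ± 0.28 in spontaneous tumors (adjusted p = 0.000538) and 1.91 ± 0.25 in treated tumors (adjusted p = 2.77e-05). With all 18 arrays it was 1.04 (adjusted p = 0.202) and 1.90 (adjusted p = 0.00504).

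Epha2, a receptor whose gene is induced by RAS-ERK signalling and common in epithelial tumors, rose by less. Controls read 7.46, 7.75, 7.32, 7.22 and 7.07 and spontaneous tumors 8.28, 8.41, 8.06 and 8.03. Treated tumors ran from 7.46 to 8.33 with a median of 7.93, and the lowest of them lay among the controls. The rise was 0.83 ± 0.17 in spontaneous tumors (adjusted p = 0.00168), about 1.8-fold, and 0.56 ± 0.15 in treated tumors (adjusted p = 0.00891), about 1.5-fold. Over the 18 arrays both were 0.66 (adjusted p = 0.341 and 0.249).

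Among 11 other ephrin receptors measured, 3 rose and 1 fell in spontaneous tumors, and 4 rose and 1 fell in treated tumors (medians 0.12 and 0.12). Ephb1 rose by 1.59 ± 0.25 and 1.84 ± 0.22, Epha7 by 1.55 ± 0.37 and 1.50 ± 0.34, and Ephb6, which lacks kinase activity, by 1.11 and 1.16. Ephb4, the receptor of venous endothelium, fell by 1.08 ± 0.14 and 1.16 ± 0.13, beside the fall of the endothelial markers. Of the 8 ephrin ligands, 1 rose and 1 fell in spontaneous and 3 rose and 1 fell in treated tumors (medians 0.27 and 0.36): Efna4, a membrane-anchored ligand of EphA receptors, rose by 1.04 ± 0.21 and 1.10 ± 0.19, and Efnb1 fell by 0.82 ± 0.19 and 0.60 ± 0.17.

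Phlda1, a pleckstrin-like protein induced early by growth factors, rose in both tumor groups. The controls read 10.20, 11.01, 10.53, 10.55 and 10.27, the spontaneous tumors 11.76, 11.64, 11.92 and 11.36, and the treated tumors 11.16 to 12.28 with a median of 11.63. No tumor lay among the controls, the nearest pair being the control at 11.01 and the treated tumor at 11.16. The rise was 1.16 ± 0.21 (adjusted p = 0.000591) and 1.15 ± 0.19 (adjusted p = 0.000199), about 2.2-fold in each. Over the 18 arrays it was 0.87 (adjusted p = 0.726) and 1.70 (adjusted p = 0.251).

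Ier3, a short-lived early response protein that prolongs ERK activity and guards against apoptosis, was not called in either tumor group and had the widest spread of the members in the tumors. Its control levels were 10.90, 12.29, 11.23, 11.08 and 11.82, its spontaneous tumor levels 9.66, 11.41, 11.02 and 10.83, and its treated tumor levels 9.63 to 12.09 with a median of 10.56. The groups overlap, and the SD was 0.58, 0.75 and 0.85 in control, spontaneous and treated samples. The differences were -0.73 ± 0.45 (adjusted p = 0.232) and -0.85 ± 0.41 (adjusted p = 0.114). Treated replicate 3, at 12.09, decides the call: without it the difference was -1.15 and passed at an adjusted p of 0.0168. With all 18 arrays the differences were -1.24 (adjusted p = 0.663) and -0.015 (adjusted p = 0.993).

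Of the 5 other genes of the PHLDA and IER families, 3 rose and 0 fell in spontaneous tumors, and 3 rose and 1 fell in treated tumors (medians 0.64 and 0.47). Phlda2, an imprinted relative of Phlda1, rose by 1.26 ± 0.39 and 1.20 ± 0.35, Ier2 by 0.64 and 0.92, and Ier5l by 0.70 and 0.47. Phlda3, a target of p53, fell by 0.42 ± 0.15 in treated tumors. The feedback inhibitors of the same cascade, dual-specificity phosphatases and Sprouty and SPRED proteins, rose for 7 of 10 genes in each tumor group, with 0 and 1 lower and medians of 1.11 and 1.39. Dusp4, which removes phosphate from ERK in the nucleus, rose by 2.94 ± 0.20 and 2.88 ± 0.18. Dusp6 (0.43 and 0.49) and Spry4 (-0.15 and -0.31) were not called in either group. Dusp7 was not called in spontaneous tumors (-0.42) and was lower in treated tumors (-0.80 ± 0.23, limma adjusted p = 0.0119).

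**Figure D3:**
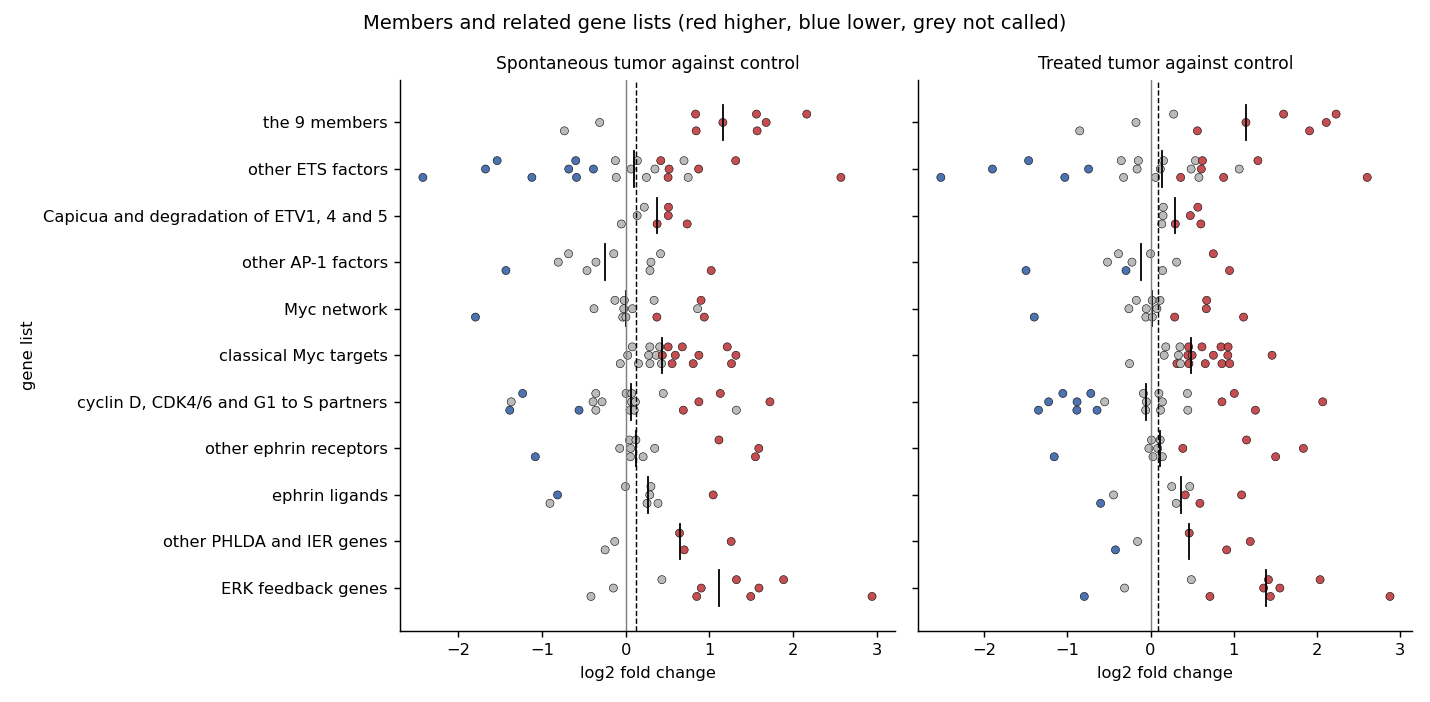
Log2 fold change against control (horizontal axis) of each gene in the members and the 10 pathway lists, for spontaneous and treated tumors: red dots were called higher, blue lower and grey neither, black bars are list medians and the dashed line is the median of all genes. The members (medians 1.16 and 1.15) and the ERK feedback genes (1.11 and 1.39) lie to the right, whereas the other ETS factors spread to both sides.

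For 5 members with several probe sets of their own, all 15 of those probe sets were compared. Both other probe sets of Etv5 gave 1.65 and 1.68 in spontaneous tumors and 1.60 and 1.66 in treated tumors, close to the values above. The second probe set of Etv4 gave 1.47 ± 0.23 and 1.80 ± 0.21. The 4 other probe sets of Epha4 gave 0.91 to 1.78 in spontaneous and 1.29 to 2.20 in treated tumors, all of them called higher. All 3 probe sets of Ccnd1 were called higher in spontaneous tumors and none in treated tumors, where the other two gave 0.33 (adjusted p = 0.159) and 0.42 (adjusted p = 0.0544). The second probe set of Fosl1 gave -0.36 in spontaneous and 0.15 in treated tumors, neither called.

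**Figure D4:**
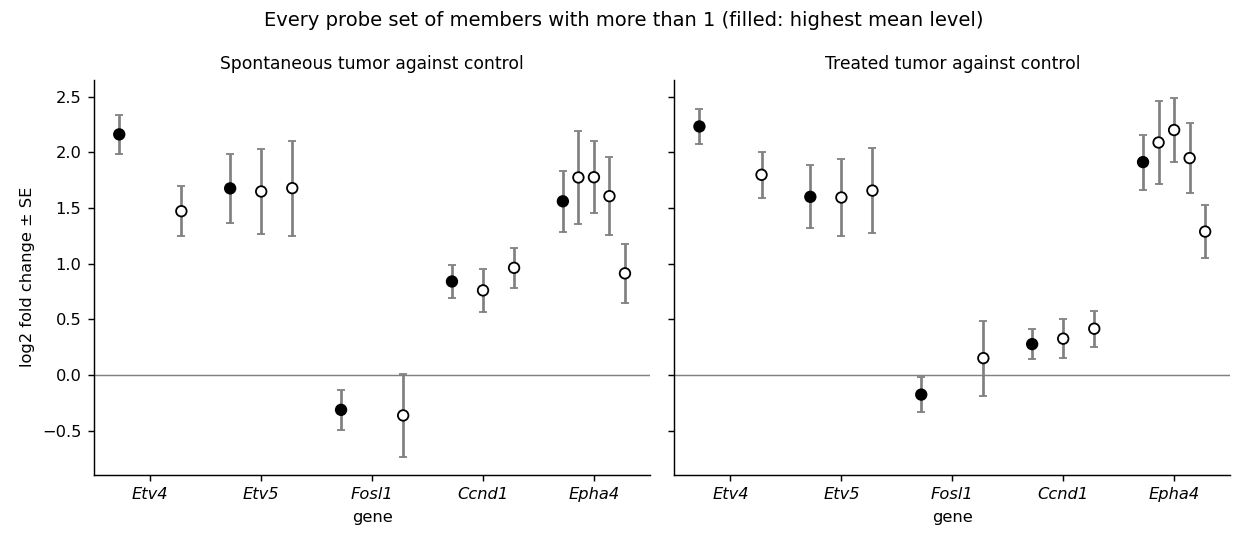
Log2 fold change with its SE against control (vertical axis) for each probe set of Etv4, Etv5, Fosl1, Ccnd1 and Epha4, in spontaneous and treated tumors; filled points are the probe set with the highest mean. The probe sets of Etv5 lie within 1.60 and 1.68, while those of Epha4 range from 0.91 to 2.20.

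In treated against spontaneous tumors, limma called 0 of 9 members, and 2 of 9 (Myc and Ccnd1) had an unadjusted p under 0.05, by limma and by the exact permutation test alike. Of all genes 8.64% had an unadjusted p under 0.05 by limma and 6.57% by the exact test. At the adjusted threshold 0.0550% were called, 0.0330% higher and 0.0220% lower in treated tumors. Myc was higher in treated tumors by 0.55 ± 0.23 (95% interval 0.059 to 1.03, adjusted p = 0.523), and all 6 treated tumors lay above all 4 spontaneous ones (exact permutation p = 0.00476 before adjustment). It was the 1 member of 9 with no overlap, against 1.63% of all genes. Ccnd1 was lower by 0.56 ± 0.14 (95% interval -0.87 to -0.26, adjusted p = 0.239, exact p = 0.0190 before adjustment), with treated tumors at 11.03 to 11.72 and spontaneous tumors at 11.61 to 12.14.

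The other members were not called. Their 95% limma intervals hold for single genes, are not adjusted over genes and measure only the spread between these arrays. Etv4 differed by 0.071 (95% interval -0.28 to 0.43), Etv5 by -0.076 (-0.72 to 0.57), Phlda1 by -0.012 (-0.44 to 0.41) and Epha4 by 0.35 (-0.21 to 0.92). Epha2 differed by -0.27 (-0.62 to 0.080). Fosl1 differed by 0.14 ± 0.17 (-0.22 to 0.50) and Ier3 by -0.12 ± 0.43 (-1.045 to 0.81). The direction of these small differences turned without single arrays for Etv4, Etv5, Phlda1 and Ier3.

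**Figure D5:**
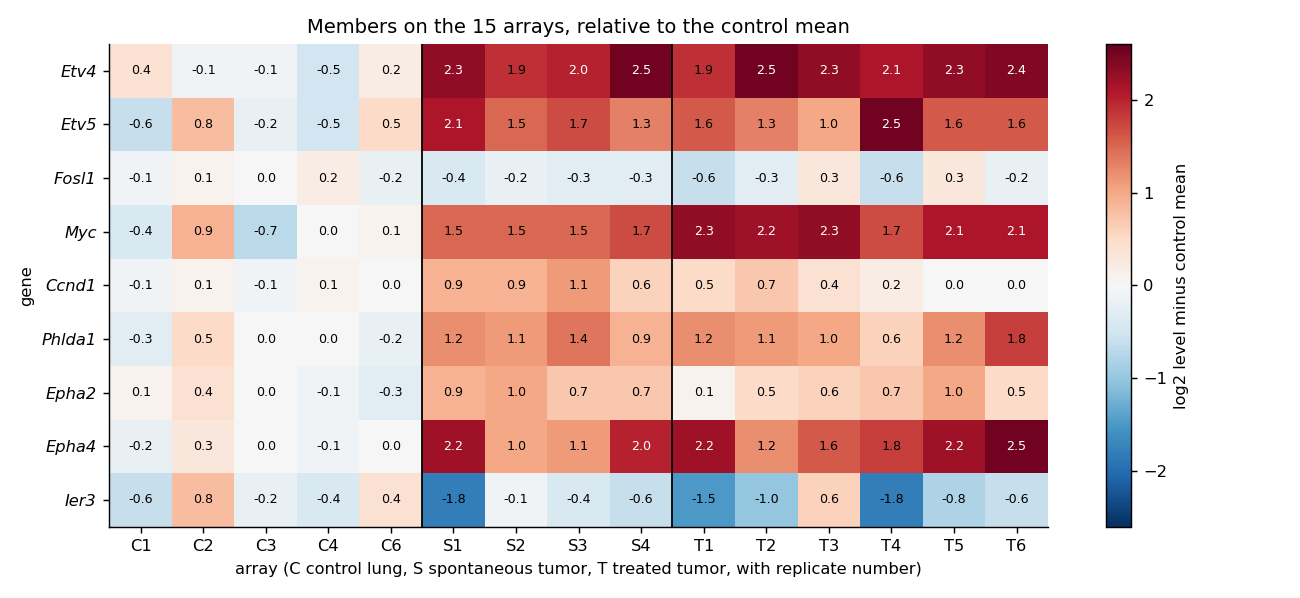
Log2 level of each member (rows) in each of the 15 arrays (columns; C control, S spontaneous, T treated, with the replicate number) minus the mean of the control arrays, coloured from lower (blue) to higher (red). Etv4, Etv5, Myc, Phlda1, Epha2 and Epha4 are above the control mean in all 10 tumors, and Ier3 is above it in treated replicate 3 alone among the tumors.

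Over the 15 arrays, the genes whose profiles lay nearest to each of the 6 members called in both tumor groups, by the mean absolute difference in log2 units after centring on the control mean, were as follows. Nearest to Etv4 were Rab27a (0.206), Elovl7 (0.224) and Stx19 (0.232). Nearest to Etv5 were Snx25 (0.244), Dram1 (0.248) and Chaf1b (0.252). These differences are small beside the rise of the member itself, since the measure favours genes with a rise of the same size. For Myc the nearest were Pafah1b3 (0.259), Cdc25b (0.265) and Jade3 (0.284). For Epha4 they were Sh3rf1 (0.190), Ezh2 (0.229) and E2f3 (0.230), the last of them also on the cyclin D list. Phlda1 lay nearest to Tonsl (0.182), Trib1 (0.187) and Ell2 (0.195), and Epha2 to Gm15471 (0.123), Ypel3 (0.130) and Cyth2 (0.149). Between members the nearest pairs were Ccnd1 with Epha2 (0.305) and Phlda1 with Epha2 (0.387), followed by Myc with Epha4 (0.393).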

How the data were processed

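Expression was measured on 18 Affymetrix arrays. The deposited values are log2 levels per probe set that the authors made with RMA, per the submitters' processing notes; the level of a probe set depends on its probes, so levels of different genes were not compared as amounts. Of 45101 probe sets, 34945 carry 1 gene symbol, 932 several and 9160 none (64 more are array controls), per the platform annotation. For each of 18193 genes the probe set with the highest mean over the 15 arrays was kept, with no filter on low levels. All 3 groups were fitted together with limma 3.58.1 (R 4.3.3), p-values were adjusted over all genes by Benjamini-Hochberg, and a gene was called at an adjusted p under 0.05. Single members were also tested by exact 2-sided permutation over arrays (126, 462 and 210 assignments). The scripts were tested on simulated data. The number of arrays limits the precision.

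The members and gene lists were chosen with earlier results of these data known. The genes named are all members, up to 5 genes of each pathway list with the smallest p in a comparison, up to 3 markers of a cell type, and the 3 genes nearest to each member called in both tumor groups. The ERK feedback genes that did not rise are named as well. Motifs were searched on both strands and were chosen after promoters had been read. Alternatives covered the arrays kept, normalization, probe set choice, variance model, test, threshold and covariates.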

Additional observations from a re-analysis of the deposited data

How the results depend on the processing

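Members called against control were 7 of 9 in spontaneous tumors and 6 of 9 in treated tumors in most settings. The exceptions were all 18 arrays (0 and 3), the exact permutation test in spontaneous tumors (4, with Etv5, Myc and Epha2 at an adjusted p of 0.0533), the further limit of 1 log2 unit, which drops Ccnd1 and Epha2 in spontaneous and Epha2 in treated tumors, and the removal of genes below the median level, which takes out Etv4 and Fosl1 (6 and 5 of 7 called). Of all genes the exact test called 22.2% in spontaneous tumors, and the limit of 1 log2 unit left 13.3% and 14.2%. Median centring added Ccnd1 in treated tumors (7, with 43.0% of all genes called). A fit of only the groups compared added Fosl1, as lower, in spontaneous tumors (8, with 33.6% of all genes called). Leaving out 1 array in turn gave 7 to 7 and 6 to 7 members called (7 without treated replicate 3, which adds Ier3 as lower), and 0 to 0 in treated against spontaneous tumors. Genes called over the whole table were 6012, 7065 and 10 in the 3 comparisons. They became 757, 1350 and 0 with all 18 arrays, 4004 and 4658 of the 9097 genes left without low genes (44.0% and 51.2%, against 33.0% and 38.8%), 2421 and 2589 with the limit of 1 log2 unit, while 11007 and 13119 of 34945 probe sets were called when each was tested singly. In treated against spontaneous tumors they were 37 with array weights, 5 with quantile normalization, 5 with a variance trend, 27 with the actin 3′ minus 5′ difference as a covariate, and 0 with the exact test, with only the groups compared and with the replicate block. Leaving out 1 array gave 4993 to 6177, 6083 to 7225 and 0 to 28. With all 18 arrays Fosl1 turned to 0.046 in spontaneous tumors, and in treated against spontaneous tumors Etv5 turned to 1.52, Fosl1 to -0.071, Ccnd1 to 0.125, Phlda1 to 0.827 and Ier3 to 1.22. In that comparison Phlda1 turned to 0.033 with array weights and, with the actin covariate, Etv5 turned to 0.11 and Phlda1 to 0.024. Leaving out 1 array moved it between -0.010 and 0.17 for Etv4, -0.25 and 0.066 for Etv5, -0.14 and 0.089 for Phlda1 and -0.48 and 0.11 for Ier3. The sign turned without spontaneous replicate 2 for Etv4 (-0.010), without spontaneous 1 (0.066) and treated 3 (0.037) for Etv5, without spontaneous 1 (0.018) and 3 (0.071) and treated 2 (0.0068), 3 (0.017) and 4 (0.089) for Phlda1, and without spontaneous 2 (0.11) and treated 1 (0.0026) and 4 (0.077) for Ier3. The cause of these changes was not tested. Same-numbered arrays deviated together with correlations of -0.149 to 0.298 over 13 pairs and 2 of 14 arrays matched their own number best, so the numbers were not taken as pairs. The replicate block gave 5764, 6417 and 0 genes and 7, 6 and 0 members. Detection calls were not used. How far the low levels of Etv4 in control lung (5.43 to 6.27) and of Fosl1 in all 3 groups (mean 6.97) stand above background is therefore not known here.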
